A study of Arabidopsis thaliana with 9 samples.

Results

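AIR12 (AT3G07390), XTH11 (AT3G48580) and XYP1 (AT5G64080) are Arabidopsis thaliana genes for proteins of the cell surface and cell wall. AT3G48230, grouped with them, encodes a protein of unknown function, and the 4 genes are described here across 9 RNA-seq libraries. They are 4 of the 32833 loci in the deposited count table, taken by locus code, and were picked because their counts were higher in sperm cells of pollen tubes that had grown through a pistil than in sperm cells of tubes grown on medium. That difference is therefore given as a description, with no test. All 4 passed the filter on low counts in every comparison used, XYP1 against nuclei only through its sperm libraries. Sorted sperm cells gave 3 libraries after 6 h of tube growth in vitro, on pollen germination medium alone, and 3 libraries after 6 h of growth semi in vivo. In the semi in vivo assay, emasculated Col-0 pistils were pollinated, kept intact for 2 h, cut where the style meets the ovary and kept for 4 h on liquid medium while tubes grew out of the cut end. The last 3 libraries hold vegetative nuclei, of the large cell whose outgrowth is the tube, sorted after in vitro growth, and no nuclei of semi in vivo tubes were analysed here. Per the labels' protocols, all pollen came from 1 transgenic line with MGH3p::MGH3-GFP, a male-gamete histone H3 fusion under its own promoter, and ACT11p::H2B-mRFP, a red histone fusion under an actin promoter, while the genotype label of every library reads WT.

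Pollen tubes grow at the tip, where new plasma membrane and wall are laid down, and the pair of sperm cells travel inside the tube, enclosed by a membrane of the vegetative cell. AIR12, named for its induction by auxin in root cultures, encodes a b-type cytochrome with a DOMON domain that is held on the outer face of the plasma membrane by a lipid anchor (GPI). XTH11 belongs to the xyloglucan endotransglucosylase/hydrolases, which cut and rejoin the xyloglucan chains between cellulose fibres. XYP1 encodes a xylogen protein, an extracellular arabinogalactan protein with a lipid-transfer domain, known from the differentiation of water-conducting cells. AT3G48230 has no gene symbol in the files and is described there only as a protein of unknown function with the DUF239 domain, which is also called the neprosin domain.

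The upstream sequences of AIR12 and AT3G48230 are shown because they were the only ones of the 4 with a match to a searched motif before the annotated start. They are the 250 bases before the start in TAIR10.1 (RefSeq annotation), 5′ to 3′ on the gene's strand, and the capitals mark the match. The AIR12 stretch is chr3:2365051-2365300 on the plus strand, and the AT3G48230 stretch is chr3:17854862-17855111 on the plus strand.
AIR12: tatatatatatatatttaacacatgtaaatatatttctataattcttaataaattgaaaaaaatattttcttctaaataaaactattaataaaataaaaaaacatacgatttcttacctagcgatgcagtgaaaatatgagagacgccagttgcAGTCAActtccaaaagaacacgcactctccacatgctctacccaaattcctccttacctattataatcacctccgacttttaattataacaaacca
AT3G48230: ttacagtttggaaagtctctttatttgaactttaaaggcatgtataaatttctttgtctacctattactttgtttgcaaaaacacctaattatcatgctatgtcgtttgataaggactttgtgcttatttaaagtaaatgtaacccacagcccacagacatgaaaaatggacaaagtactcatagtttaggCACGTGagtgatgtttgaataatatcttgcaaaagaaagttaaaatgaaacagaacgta
The capitals in AIR12 are the reverse strand of TTGACT, a W-box, the element bound by WRKY factors, and 21.8% of the 27438 protein-coding promoter windows hold it. The capitals in AT3G48230 are the palindrome CACGTG, a G-box, held by 7.68% of windows. Windows of 250 bases before to 50 bases after each start were searched on both strands for 7 motifs, and the matches in the 4 windows do not overlap. The auxin response element TGTCTC (14.2% of windows) matched only XYP1, after its start, on the reverse strand. TTGACC (14.2%) matched AIR12 after its start, on the reverse strand. TGTCGG (5.12%), a second auxin element, and AACCGT (8.76%) and AACCGC (4.23%), sites of the sperm MYB factor DUO1, matched none of the 4 windows. XTH11 had no match to any of the 7, and no motif was shared by a pair of the genes.

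Library totals ran from 13768069 to 41118337 counts, and levels are given as CPM, the usual count-per-million scale, with the sum of all gene counts of a library as its total. In in vitro sperm library 2, 14203 genes reached 1 CPM, where the remaining sperm libraries had 7462 to 9867 such genes and nucleus library 1 had 6299. The 13 sperm markers summed to 22552 to 28395 CPM in in vitro sperm, 29756 to 30755 CPM in semi in vivo sperm and 485 to 577 CPM in nuclei, and the 14 vegetative cell markers to 31540 to 47360 CPM in nuclei and 187 to 308 CPM in sperm. The markers of the sorted fractions thus lay where the labels place them.

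AIR12 was the only one of the 4 with a higher mean level in nuclei than in in vitro sperm. In vitro sperm had 17.97, 16.5 and 22.0 CPM in libraries 1 to 3, from 260, 670 and 808 counts. Semi in vivo sperm had 96.4, 82.0 and 107 CPM, from 2313, 3370 and 3528 counts. The nuclei had 76.2, 40.3 and 54.5 CPM, from 1049, 1418 and 1490 counts. The 3 groups did not overlap on this scale: in vitro sperm lay lowest, nuclei in between and semi in vivo sperm highest, with the highest nucleus library (76.2 CPM) close under the lowest semi in vivo library (82.0 CPM). After TMM scaling, a correction for a few abundant genes taking unequal shares of the counts, nuclei (23.95 to 58.9 CPM) and in vitro sperm (17.95 to 29.4 CPM) overlapped. Group means were 18.8 ± 2.85, 57.0 ± 18.1 and 95.2 ± 12.7 CPM (SD, n = 3).

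XTH11 had 6.29, 11.1 and 12.3 CPM in in vitro sperm, from 91, 449 and 452 counts, and 40.2, 24.9 and 37.9 CPM in semi in vivo sperm, from 966, 1023 and 1247 counts. Every semi in vivo library lay above every in vitro library. In nuclei the value rested on library 2, with 7.03 CPM from 247 counts, while libraries 1 and 3 had 0.799 and 0.695 CPM from 11 and 19 counts. In CPM of the total, nuclei and in vitro sperm overlapped, since nucleus library 2 lay above in vitro sperm library 1. After TMM scaling they did not, with at most 4.172 CPM in nuclei and at least 6.282 CPM in in vitro sperm. Group means were 2.84 ± 3.63 CPM in nuclei, 9.90 ± 3.18 CPM in in vitro sperm and 34.4 ± 8.28 CPM in semi in vivo sperm (SD, n = 3).

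XYP1 had many counts in sperm and few in nuclei. It had 34.5, 50.2 and 34.0 CPM in in vitro sperm, from 499, 2035 and 1248 counts, and 107, 143 and 76.2 CPM in semi in vivo sperm, from 2558, 5894 and 2506 counts. Nucleus libraries 1 and 3 held 0 counts, which allows levels of up to 0.218 and 0.110 CPM at 3 counts, and library 2 held 59 counts, or 1.68 CPM. The 3 groups did not overlap in CPM of the total, with nuclei lowest and semi in vivo sperm highest, and the spread between semi in vivo libraries was wide. After TMM scaling the sperm groups overlapped, at 34.45 to 71.39 CPM in vitro and 70.58 to 223.5 CPM semi in vivo. Group means were 0.559 ± 0.969, 39.6 ± 9.22 and 109 ± 33.6 CPM (SD, n = 3) in nuclei, in vitro sperm and semi in vivo sperm.

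AT3G48230, the DUF239 gene, had 10.3, 15.6 and 16.5 CPM in in vitro sperm, from 149, 632 and 604 counts. Semi in vivo sperm had 66.0, 68.1 and 32.3 CPM, from 1584, 2802 and 1063 counts. Nuclei had 7.19, 6.88 and 4.21 CPM, from 99, 242 and 115 counts. The groups did not overlap, with or without TMM scaling, in the order nuclei, in vitro sperm, semi in vivo sperm, and semi in vivo library 3 stood well below the other libraries of its group. Group means were 6.09 ± 1.64, 14.1 ± 3.34 and 55.5 ± 20.1 CPM (SD, n = 3).

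**Figure D1:**
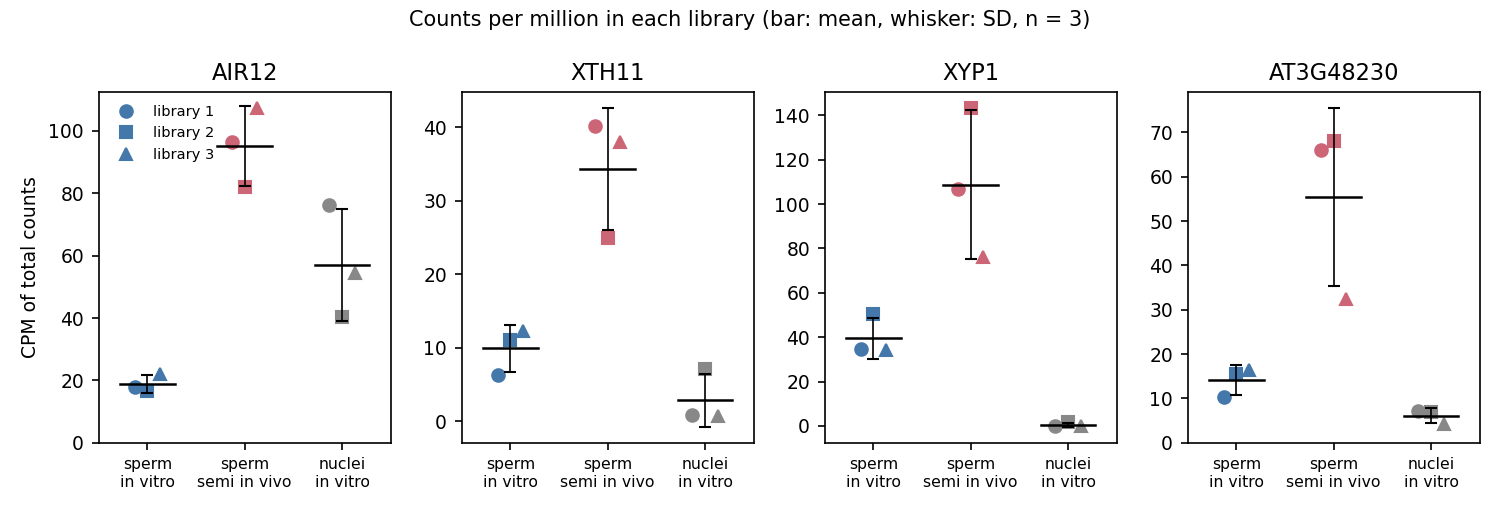
CPM of total counts (y axis, 1 panel per gene, own scale) in the 9 libraries, by group, with markers for library number, the mean as a bar and the SD as a whisker. The semi in vivo sperm libraries are the highest of each panel, and nuclei lie between the sperm groups only for AIR12, at 40.3 to 76.2 CPM, where TMM scaling makes nuclei and in vitro sperm overlap.

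The values that chose the genes are those of semi in vivo against in vitro sperm. With TMM scaling, the semi in vivo level was 5.75-fold the in vitro level for AIR12, 4.43-fold for AT3G48230, 3.95-fold for XTH11 and 3.13-fold for XYP1. All 4 are among the 76 genes that edgeR called higher of 14131 tested (0.538%), beside 0.092% called lower, and nothing is read from this count because they were picked from that comparison. By size of the fold they stood 7th, 11th, 17th and 28th among these 76. In CPM of the total, the semi in vivo libraries of all 4 lay above every in vitro library, as in 4.15% of the genes tested, and nothing is read from this either. After TMM scaling this did not hold for XYP1, at 70.58 CPM in semi in vivo library 3 and 71.39 CPM in in vitro library 2. Leaving out any 1 of the 6 sperm libraries, including in vitro library 2 with its many detected genes and semi in vivo library 3, left the log2 difference between 2.39 and 2.74 for AIR12, 1.997 and 2.40 for AT3G48230, 1.79 and 2.27 for XTH11, and 1.42 and 1.83 for XYP1. The choice rested on these same libraries, so nothing is read from these ranges.

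The order of the 3 semi in vivo libraries changed with the scale for AIR12 and XTH11. In CPM of the total AIR12 was highest in library 3 (107 CPM) and lowest in library 2 (82.0 CPM), while after TMM scaling it was highest in library 2 (128 CPM) and lowest in library 3 (99.4 CPM). XTH11 was highest in library 1 on both scales, and lowest in library 2 (24.9 CPM) in CPM of the total and in library 3 (35.1 CPM) after TMM scaling. XYP1 and AT3G48230 were highest in library 2 and lowest in library 3 on both scales.

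Levels were compared between the 4 genes only per kilobase of exon, from exon lengths of 1022 (XYP1) to 1660 bases (AT3G48230). In in vitro sperm XYP1 led with 38.7 ± 9.02 CPM per kb, followed by AIR12 with 15.8 ± 2.38, AT3G48230 with 8.51 ± 2.01 and XTH11 with 7.89 ± 2.54 (SD, n = 3). The last 2 did not differ beyond their spread. In semi in vivo sperm the order was XYP1 (106 ± 32.9 CPM per kb), AIR12 (79.6 ± 10.6), AT3G48230 (33.4 ± 12.1) and XTH11 (27.4 ± 6.61), where the first pair and the last pair each lay within their spread. In nuclei AIR12 led with 47.7 ± 15.1 CPM per kb, against 3.67 ± 0.988 for AT3G48230, 2.27 ± 2.89 for XTH11 and 0.547 ± 0.948 for XYP1. Among 17125 genes ranked per kilobase, XYP1 stood above 97.2% in semi in vivo sperm and above 47.5% in nuclei, and AIR12 above 96.3% and 92.4%.

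Sperm were then compared with vegetative nuclei. The mean of both sperm groups was set against nuclei, a contrast other than the difference that chose the genes, with 3 nucleus libraries that the choice did not use. It is not fully apart from the choice, since its sperm side is the same sperm libraries. A gene called between the sperm groups needs counts in sperm, which favours a level above nuclei. A whole sperm cell, with its cytoplasm, is here compared with a nucleus, and in such bulk samples fewer cells of a type and less RNA per cell cannot be told apart. Of 17133 genes tested, 48% passed an adjusted p of 0.05 (edgeR quasi-likelihood test, Benjamini-Hochberg), 31.2% higher in sperm and 16.7% lower. The 5351 higher and 2868 lower genes became 4160 and 3708 with TMM factors over genes that had counts in every library. Of the 4 genes, 3 rose in sperm, beside that 31.2%, and nothing is read from this count because the choice favoured genes with counts in sperm.

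XYP1 rose most in sperm, with a log2 difference of 7.89 (SE 1.59, edgeR adjusted p = 0.0019). With 0, 59 and 0 counts in nuclei, it passed the filter only through the sperm libraries. Nothing is therefore read from its call here or below. All 6 sperm libraries, at 34.0 CPM or more, lay above all 3 nucleus libraries, at 1.68 CPM or less. XTH11 rose by a log2 difference of 3.72 (SE 0.94, edgeR adjusted p = 0.0074), with the lowest sperm library (6.29 CPM of the total) under the highest nucleus library (7.03 CPM), an order that TMM scaling turned around. AT3G48230 rose by 3.17 (SE 0.70, edgeR adjusted p = 0.00336), with all 6 sperm libraries at 10.3 CPM or more and nuclei at 7.19 CPM or less. Nucleus library 2 held all XYP1 counts of the nuclei and most of those of XTH11. Without it the log2 differences were 14.15 for XYP1, a value set by the prior count because the other nucleus libraries held 0, and 5.47 for XTH11, and without nucleus library 1 that of XTH11 was 2.13 (edgeR adjusted p = 0.0745). A separation of all 6 sperm libraries from all 3 nucleus libraries in this direction was seen in 27.5% of the genes tested.

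AIR12 did not pass in this comparison. Its log2 difference was 0.44 (SE 0.50, edgeR adjusted p = 0.49), and its sign turned with the scaling, to -0.36 with RLE factors and -0.61 with TMM factors taken over genes with counts in all 9 libraries, and to -0.19 without nucleus library 1. In vitro sperm alone against nuclei gave -0.69 (SE 0.61), and semi in vivo sperm alone gave 1.59 (SE 0.57). The sperm values of each single group had entered the choice of all 4 genes, low for in vitro and high for semi in vivo sperm, so these differences are given as a description, with no test. In vitro sperm and nuclei came from tubes grown in the same way.

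In vitro sperm alone differed from nuclei in 44.9% of genes tested (30.7% higher, 14.3% lower) and semi in vivo sperm alone in 52.6% (31.7% higher, 21% lower). In vitro sperm alone had a log2 difference of 7.19 for XYP1 (SE 1.98), 2.90 for XTH11 (SE 1.16) and 2.18 for AT3G48230 (SE 0.75). Semi in vivo sperm alone had 8.65 for XYP1 (SE 2.02), 4.58 for XTH11 (SE 1.12) and 4.18 for AT3G48230 (SE 0.79), again as a description. The median gene was itself shifted, by 1.85 in log2 with TMM and by 0.73 when the factors came from genes with counts in all 9 libraries. Relative to the median of all genes, the log2 differences with TMM were 6.04 for XYP1, 1.87 for XTH11, 1.31 for AT3G48230 and -1.41 for AIR12. The call of XTH11 was lost in 6 of the 9 fits that left out 1 library (any of in vitro sperm 1 and 3, semi in vivo sperm 1, 2 and 3, and nuclei 1; edgeR adjusted p = 0.0546 to 0.0745), while XYP1 and AT3G48230 kept theirs in all 9.

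**Figure D2:**
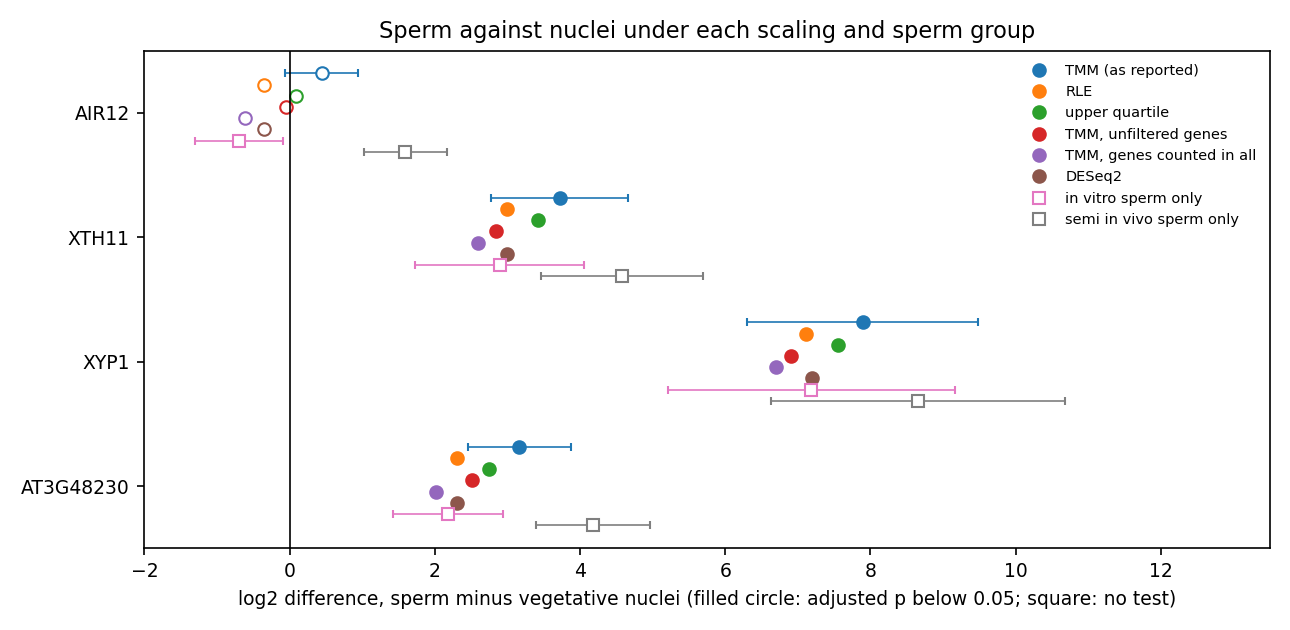
Log2 difference of sperm minus vegetative nuclei (x axis) for each gene under 6 fits of both sperm groups and for each sperm group alone, with SE whiskers for the reported fit and the single groups. Filled circles passed the edgeR or DESeq2 test and squares, for single groups, carry no test. XYP1 lies between 6.71 and 8.65, while the AIR12 points fall on both sides of 0.

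Markers of other cells were read beside these values. The 18 pistil markers, such as the style and carpel regulators HEC1, NTT and CRC, summed to 1.10 to 5.37 CPM in semi in vivo sperm and 3.76 to 30.8 CPM in in vitro sperm. The 30.8 CPM came from in vitro library 2, beside 9.61 and 3.76 CPM in libraries 1 and 3. Of the 18, 2 were at 0 in all 3 semi in vivo libraries, 1 in all 3 in vitro sperm libraries and 6 in all 3 nucleus libraries. The 14 vegetative cell markers summed to 187 to 250 CPM in semi in vivo and 236 to 308 CPM in in vitro sperm, and none was at 0 in all 3 libraries of a group. Most of that sum was LRX11, a cell wall extensin gene, at 121 to 194 CPM. VGD1, a pectin methylesterase gene with 12954 to 15905 CPM in nuclei, had 0.760 to 8.49 CPM in in vitro and 1.22 to 1.83 CPM in semi in vivo sperm. AIR12 amounted to 0.0945% to 0.242% of the vegetative marker sum in nuclei. It amounted to 6.57% to 7.62% of that sum in in vitro sperm and to 38.3% to 57.4% in semi in vivo sperm. The sperm values of AIR12 entered its choice, so nothing is read from these shares. The 6 green tissue markers summed to 504 to 580 CPM in semi in vivo and 292 to 414 CPM in in vitro sperm. All but 1 of the 6 had less than 1 CPM in each sperm library, the exception being the Rubisco small subunit gene RBCS3B at 504 to 579 against 291 to 414 CPM. CAB1, CAB3 and RCA were at 0 in all 3 semi in vivo libraries. The part of RNA from green tissue in the values of the 4 genes was not tested.

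**Figure D3:**
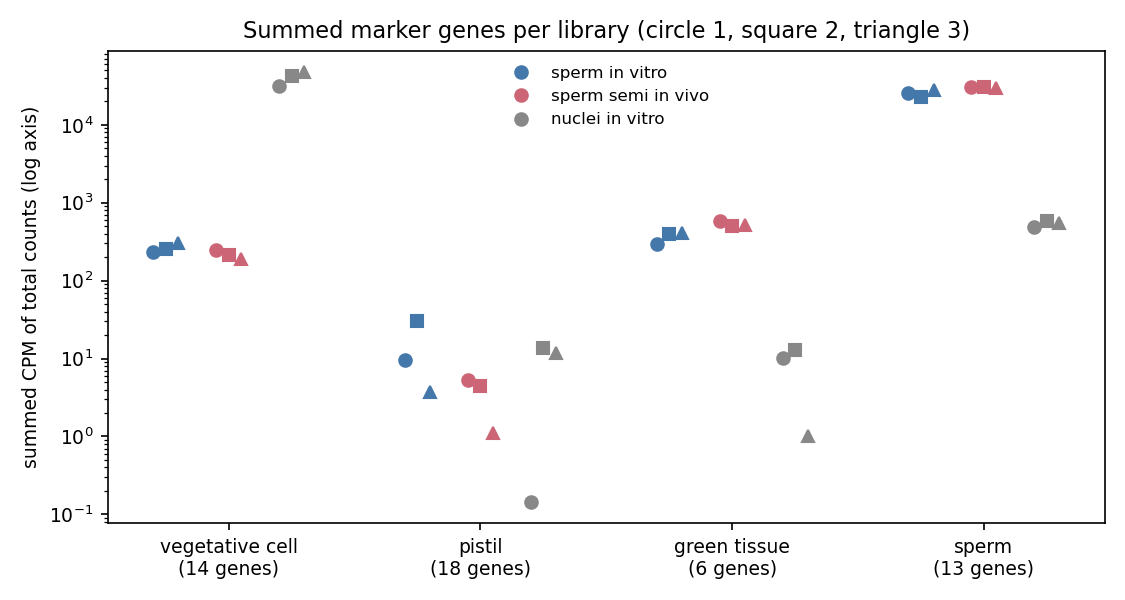
Summed CPM of 4 marker sets (log y axis) in each library, coloured by group. The vegetative sum spans 187 to 250 CPM in semi in vivo and 236 to 308 CPM in in vitro sperm, and the pistil sum 1.10 to 5.37 and 3.76 to 30.8 CPM. The pistil value of 30.8 CPM is in vitro library 2.

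The relatives of the 4 genes were then read across the same groups, from 8 lists of families and pathways, without the 4 genes themselves. Between the sperm groups, none of the genes tested in any of the 8 lists passed by edgeR in either direction, beside 0.63% of all genes. Counts against nuclei are to be read beside the 31.2% of all genes that were higher and the 16.7% that were lower in sperm, and no list was tested as a set. At an unadjusted p below 0.05 between the sperm groups there were 0 to 2 genes per list, and DESeq2 also called 0 in each. Many list genes had under 1 CPM in sperm, and the medians moved with in vitro sperm library 2, the library with the most genes at 1 CPM. Over the 8 lists they ran from -1.74 to 0.17 with all sperm libraries and from -0.996 to 0.66 without that library. No direction is read from them.

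Of the 32 other XTH genes, 12 were tested between the sperm groups and 0 passed, with a median log2 difference of -0.79 beside -0.17 for all genes. XTH29, the most abundant of them in sperm, had 4.66 CPM in semi in vivo and 5.08 CPM in in vitro sperm on average, below the 34.4 and 9.90 CPM of XTH11. Against nuclei, 13 were tested, 3 rose and 3 fell in sperm, with a median log2 difference of 6.74 beside 1.85 for all genes, and of 3.01 with the 8 genes that had 0 counts in a group at the bound that 3 counts per library allow. Where such bounds change a median below, the second value given is the one with bounds. XTH30 fell by 8.89 in log2, from 207 CPM in nuclei to 1.06 CPM in in vitro and 0.0498 CPM in semi in vivo sperm, and XTH29 fell by 1.76. XTH5, with 0 counts in nuclei, rose, at 2.97 CPM in in vitro and 2.82 CPM in semi in vivo sperm.

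The genes that build and trim xyloglucan, the substrate of XTH enzymes, had their abundant RNAs in nuclei. Of 18, 11 were tested against nuclei, where 5 fell and 1 rose in sperm (median log2 difference -3.97). The backbone synthase genes CSLC6 and CSLC12 had 182 and 110 CPM in nuclei and 0.0941 to 1.197 CPM in the sperm groups. The xylosyltransferase gene AT3G62720 (XXT1, listed as XT1) had 105 CPM in nuclei and 2.72 CPM in in vitro sperm. The galactosyltransferase gene AT5G62220 (XLT2, listed as GT18) rose in sperm, with 13.6 and 15.9 CPM in in vitro and semi in vivo sperm and 0.522 CPM in nuclei. With DESeq2, and without in vitro sperm library 1 or 3, 0 genes of this list were called higher in sperm. In the sperm comparison 7 were tested and 0 passed (median -0.39).

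Expansins, which loosen walls without cutting them, had abundant RNAs in nuclei and others in sperm. Of 36, 18 were tested against nuclei, 4 fell and 3 rose in sperm (median log2 difference 1.87). EXPA4, EXPA16 and EXPB5 had 3626, 566 and 468 CPM in nuclei and under 1 CPM in either sperm group, while EXPA3 (AT2G37640, listed as EXP3) rose in sperm, with 17.3 and 26.3 CPM in in vitro and semi in vivo sperm and 0.0664 CPM in nuclei. EXPA7 had 64.1 and 59.6 CPM in sperm and 5.06 CPM in nuclei (log2 difference 4.33, edgeR adjusted p = 0.0523). Its nucleus mean rested on library 1, with 208 counts beside 1 and 1 in the others. Between the sperm groups 13 were tested and 0 passed (median -0.02), with EXPA3 at a log2 difference of 0.81 (SE 0.29, edgeR adjusted p = 0.327).

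Xylogen and the related GPI-anchored lipid transfer proteins had their abundant RNAs in nuclei. LTPG3 had 1075 CPM and LTPG4 499 CPM in nuclei, and each was below 0.3 CPM in both sperm groups. Of 30 genes other than XYP1, 13 were tested against nuclei, 2 fell, these 2, and 2 rose in sperm, LTPG32 and LTPG34 (median 0.44). Between the sperm groups 8 were tested and 0 passed (median -1.21). LTPG1 had the largest positive log2 difference of the list, 5.54 (SE 2.40, edgeR adjusted p = 0.525), from 0, 1 and 0 counts in in vitro and 17, 24 and 12 counts in semi in vivo sperm. It is named here after its values were seen.

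In the DUF239 family AT3G48230 was the only gene with more than 3 CPM in either sperm group on average. Of the 43 others, 24 were tested against nuclei, 4 rose and 3 fell in sperm (median 3.55, or 2.80). The 4 that rose had 0 counts in nuclei and at most 2.17 CPM on average in either sperm group. With no filter 0 rose, with a replicate block 1, and with DESeq2 8. With 1 library left out 0 rose, except 4 without semi in vivo sperm library 3. AT5G46200 fell most, from 967 CPM in nuclei to 0.558 and 0.487 CPM in in vitro and semi in vivo sperm (log2 difference -9.76, SE 1.23, edgeR adjusted p = 8.97e-05). Between the sperm groups 19 were tested and 0 passed, and 1 of the 19 had a positive log2 difference (median -1.54). Without in vitro sperm library 2 the median was -0.55, over 21 tested.

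Genes near AIR12 in function were low in sperm. Of 11 other DOMON and cytochrome b561 genes, 8 were tested between the sperm groups and 0 passed (median 0.17), and of 9 tested against nuclei 1, AT3G07570, rose and 0 fell (median 3.06, or 2.64; 5 had an unadjusted p below 0.05 and DESeq2 called 3). CYB-1 (AT5G38630) had 4.50 and 5.37 CPM in in vitro and semi in vivo sperm. Of the 10 respiratory burst oxidases, plasma membrane enzymes that make superoxide, RbohH and RbohJ of the pollen tube fell in sperm, with 227 and 14.8 CPM in nuclei, and RBOHB rose, with 4.89 and 3.07 CPM in sperm and 0 counts in nuclei (7 tested, median 1.82). Of the 10, 5 were tested between the sperm groups and 0 passed (median -1.35).

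Of 44 Aux/IAA and GH3 genes, which respond early to auxin, 17 were tested between the sperm groups and 0 passed (median -1.74). IAA29, a repressor of auxin responses, had 18.1 and 28.5 CPM in in vitro and semi in vivo sperm (log2 difference 0.85, SE 0.24, edgeR adjusted p = 0.166), and IAA10 had 26.1 and 22.3 CPM. Of 24 tested against nuclei, 5 rose in sperm, among them IAA10, IAA11 and IAA29, and 1 fell, the GH3 gene BRU6 (median 2.47, or 2.41). The list also holds auxin response factors that carry an IAA synonym, such as NPH4.

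**Figure D4:**
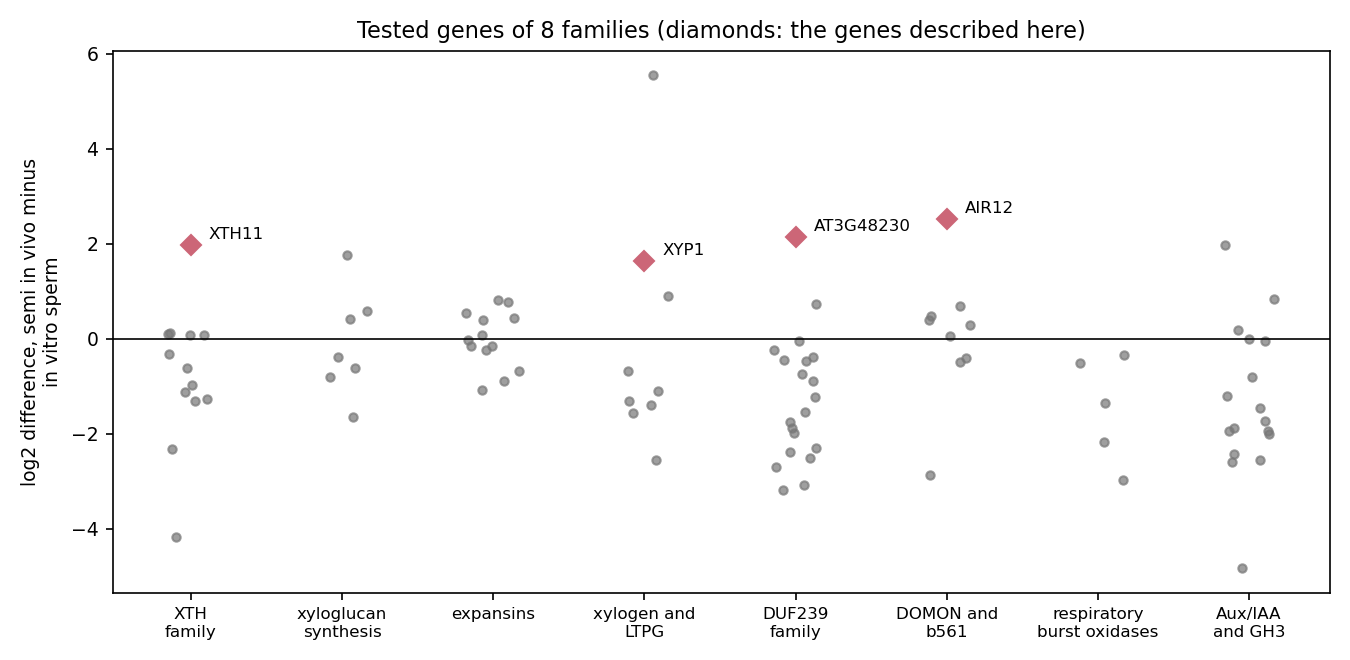
Log2 difference of semi in vivo minus in vitro sperm (y axis) for each tested gene of the 8 lists, with the 4 genes described here as labelled diamonds at 1.65 to 2.52. The point at 5.54 is LTPG1, which had 12 to 24 counts per semi in vivo library.

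Profiles over the 9 libraries were compared by the root mean square difference of log2 CPM after centring each gene, where 0 means the same profile. Among the 4, XTH11 and AT3G48230 were the closest pair (1.04) and AIR12 and XYP1 the farthest (4.202). The genes nearest to AIR12 were AT4G10480 (0.518), of the nascent polypeptide-associated complex, the lipoamide dehydrogenase gene mtLPD2 (0.541) and ACR8 (0.634). All had more CPM in semi in vivo than in in vitro sperm, which the search for like profiles favours, so nothing is read from it here or below. Nearest to XYP1 were AT3G01295 (0.351), with 29.7 ± 8.40 and 109 ± 31.8 CPM in in vitro and semi in vivo sperm (SD, n = 3), the transcription factor gene WRKY55 (0.440) and BUB3.2 (0.488). XTH11 was nearest to AT2G34325 (0.342), LUT1 (0.483) and AtMYB103 (0.502), each under 9 CPM in every group. AT3G48230 was nearest to AT5G64550 (0.490), AT1G59865 (0.560) and ATMPK13 (0.620). AT1G59865 and ATMPK13 were low, with highest group means of 1.09 and 0.574 CPM, where the prior count shapes the profile.

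No annotated gene overlapped any of the 4, so their neighbours could be read apart from them. AT3G07400, after AIR12 on the same strand, had 509 ± 27.8 and 589 ± 87.3 CPM in in vitro and semi in vivo sperm and 18.6 ± 13.6 CPM in nuclei (SD, n = 3), with a log2 difference of 0.40 between the sperm groups (edgeR adjusted p = 0.479). AT3G48220, before AT3G48230 on the opposite strand, had 9.67 ± 3.85 and 10.7 ± 3.09 CPM in sperm (log2 difference 0.33, edgeR adjusted p = 0.999). NF-YC1, after XTH11, had 28.3 ± 19.1 CPM in nuclei and under 0.4 CPM in either sperm group. PI-4KBETA1 and AT5G64090 on either side of XYP1 and LCR48 after AT3G48230 were under 2 CPM in either sperm group.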

How the data were processed

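Counts per gene were deposited by the authors as raw counts for 9 libraries. Per the submitters' processing notes, Trim Galore, HISAT2 and featureCounts were used with TAIR10. The sources used here give no versions, strand setting or treatment of reads with several positions, so values of close paralogs are uncertain. Per the labels' protocols the libraries are Smart-seq2, which amplifies cDNA by PCR without molecular identifiers or strand. The limits from 3 counts therefore cover counting error only, while SD and SE describe the spread between libraries.

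The 4 genes and all lists were chosen with earlier results of these data known. Comparisons used edgeR 4.0.16 in R 4.3.3: filterByExpr (minimum count 10), TMM, robust quasi-likelihood F test and Benjamini-Hochberg adjustment over all genes. Sperm against nuclei used all 9 libraries, the sperm groups their own 6. SE is the absolute log2 difference over the square root of F. The rule named, per list, genes past the threshold between the sperm groups and up to 4 with the highest mean CPM; per gene, the 3 nearest profiles (prior count 2) and both neighbours. Other list genes and single markers were added after their values were seen. The chi-square of counts between replicates was 25.3 to 369 per gene, so none was a duplicate. No label states separate cultures or plants, and p-values then describe the spread of these libraries, which may be technical. Promoters and exon lengths came from TAIR10.1, and the planned protein features were not computed. Alternatives were RLE, upper-quartile and other TMM factors, no filter, DESeq2 1.42.0, single sperm groups, a replicate block and each library left out. The procedure was tested on simulated counts.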

Additional observations from a re-analysis of the deposited data

How the results depend on the processing

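XYP1 and AT3G48230 kept direction and call against nuclei in every alternative that used both sperm groups. Their log2 differences were 6.71 to 9.21 and 2.02 to 3.17, or 6.12 to 14.15 and 2.26 to 3.17 with 1 library left out. XTH11 had 2.13 to 5.47 with 1 library left out. Single sperm groups, whose values entered the choice of the genes, carry no test. In vitro sperm alone gave 7.19, 2.18 and 2.90 for XYP1, AT3G48230 and XTH11, and semi in vivo sperm alone 8.65, 4.18 and 4.58. AIR12 turned negative with RLE factors (-0.3556), DESeq2 (-0.3548), TMM factors before the filter (-0.05078), TMM factors over genes with counts everywhere (-0.6143), no filter (-0.0508) and in vitro sperm alone (-0.6932). With semi in vivo sperm alone, whose high values chose the gene, it was 1.593, and it ran from -0.1914 (without nucleus library 1) to 0.4517 with 1 library left out. The cause was not tested.

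Against nuclei 5351 genes were higher and 2868 lower, a split that became 4640 and 3527 with RLE, 4532 and 3380 with TMM before the filter, and 4160 and 3708 with TMM over genes with counts everywhere. Between the sperm groups the 89 calls became 150 with no filter, 347 with DESeq2, and 51 (without in vitro sperm library 1) to 123 (without semi in vivo sperm library 1) with 1 library left out. The list calls against nuclei moved as follows. The 6 of the XTH family became 3 with in vitro and 2 with semi in vivo sperm alone, and 2 to 5 with 1 library left out. The 4 of the xylogen list became 7 with DESeq2. The 7 of the DUF239 family became 4 with TMM over genes with counts everywhere, 3 with no filter, 4 with in vitro and 2 with semi in vivo sperm alone, and 2 to 7 with 1 library left out. The 1 of the DOMON list became 2 with RLE, 2 with upper quartile, 2 with TMM before the filter, 2 with TMM over genes with counts everywhere, 3 with DESeq2, 0 with in vitro sperm alone, and 0 to 2 with 1 library left out. The 6 of the auxin list became 3 to 5 with 1 library left out.

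A replicate block gave 223 calls between the sperm groups, 4 in the DUF239 family, 2 in the DOMON list and 3 in the auxin list. The deviations of same-numbered sperm libraries had correlations of -0.00628, 0.0114 and 0.0978, beside -0.132 to 0.121 for sperm libraries of different numbers. In vitro sperm and nuclei had 0.0214, 0.0526 and 0.0174 for the same number, beside -0.0547 to 0.0313 for different numbers. Whether same-numbered libraries came from a shared culture or sort was not tested. The block changed no call of the 4 genes against nuclei.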
